A study of Rattus norvegicus with 10 samples.

Results

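The 50 transcripts described here are annotated rat transcripts that had a right, ischemic hemisphere level lower than the left by 1 or more (log2) in 4 or 5 of 5 rats, 24 h after middle cerebral artery occlusion (MCAO). They were taken from a table of 32166 transcripts, of which 30242 carry an Ensembl identifier and the others are long noncoding RNAs (lncRNAs) assembled by the study. A transcript was eligible when its mean over the left libraries was at least 1 FPKM (fragments scaled by exon length and by the mapped fragments of the library), which 15009 annotated transcripts met. The difference in each rat was log2(right FPKM + 0.1) minus log2(left FPKM + 0.1), and the 50 members are 0.333% of the eligible transcripts. "Halved" is used below for a difference of -1 or lower on that scale. Because the right against left difference chose the members, all their differences between the sides are given as a description and none as a finding.

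All 5 animals were male Sprague Dawley rats, called P45, P52, P61, P71 and P72, and each had its middle cerebral artery closed by a suture that was later withdrawn to let blood return. Each rat gave a left and a right library, so 10 libraries form 5 pairs, and no animal without surgery was analysed here. The rats' age is not given in the sources used here. RNA came from bulk tissue of the middle coronal slices of each side. The study also calls its material cortex and outlines the sampled area in a picture, so hemisphere here means the tissue taken there. In bulk tissue, a lower level from fewer cells of a type and one from less RNA per cell cannot be told apart. The right side was taken as ischemic because the study draws the suture on the right, and the sign of its left over right ratios for transcripts it names as raised goes with that. The deficit scale it describes scores weakness and turning toward the right, as seen after injury to the left brain, and the labels name only the side.

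MCAO is a widely used rodent model of ischemic stroke. Loss of blood flow empties the energy stores of the tissue, neurons in the core of the territory die, and at its border neurons, glia and vessel cells survive with a changed pattern of transcription and RNA decay. Many transcripts that ischemic brain loses belong, in general, to neurons, while stress response and inflammatory transcripts gain. The members below are Ensembl transcripts, which are single isoforms and not genes. The reads of overlapping isoforms are divided between them by Cufflinks, and a shift between the isoforms of a gene and a lower total for that gene cannot be told apart in these values.

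The files do not pair Ensembl transcript identifiers with gene symbols, and 0 entries of the reference tables used here carry such an identifier. No gene name, function, cell type or sequence can therefore be given for any member, and the tissue could not be checked against marker genes. Members are numbered from 1 to 50 in the order of their mean left FPKM, from the highest to the lowest. ENSRNOT00000071097 is member 1, the most abundant on the left, and ENSRNOT00000071808 is member 26, which had the lowest mean difference among the members halved in all 5 rats. Members described by number outside these were chosen after their values were seen. Values in 5 rats are always listed in the order P45, P52, P61, P71 and P72.

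The libraries were similar in total, with 468375 to 525515 FPKM summed over all rows. Relative sequencing depth, estimated from the step between low values and set at 100% for the deepest library, lay between 62.6% and 100% on the left (median 92.7%) and between 58.2% and 82.4% on the right (median 69.7%). The right library was the shallower in 4 of 5 rats, and the part of depth in the low right values was not tested. The median difference over all eligible transcripts was close to 0 in each rat, between -0.04 and -0.01.

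The members were mostly transcripts of low abundance. Their mean left FPKM ran from 1.15 to 132 with a median of 3.79, and their mean right FPKM ran from 0.0141 to 59.9 with a median of 1.25. The median mean left level of all eligible transcripts was 13.2 FPKM. Of the 1411 eligible transcripts at 1 to 2 FPKM on the left, 10 were members (0.709%), and of the 2401 at 2 to 5 FPKM, 18 were members (0.750%). The share was 0.280% (7 of 2501) at 5 to 10 FPKM, 0.172% (11 of 6396) at 10 to 50 FPKM and 0.174% (4 of 2300) at 50 FPKM or more. The members also varied more between rats on each side. The median SD of log2(FPKM + 0.1) was 0.59 on the left and 0.82 on the right, against 0.21 and 0.27 over all eligible transcripts. All eligible transcripts were not matched to the members in level, and the part of low level in this spread was not tested.

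**Figure D1:**
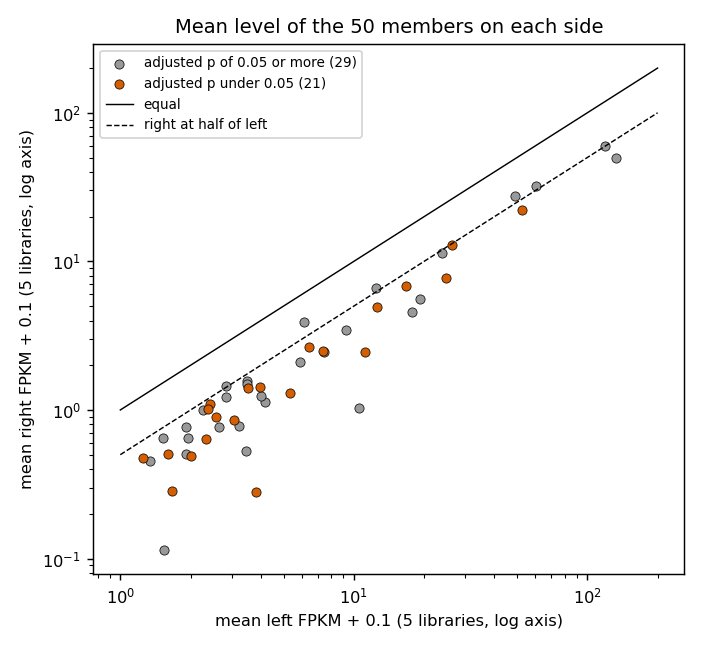
Mean FPKM + 0.1 of each of the 50 members over the 5 right libraries (vertical log axis) against the mean over the 5 left libraries (horizontal log axis). Points are members, orange for the 21 with an adjusted p under 0.05 in limma, the solid line marks equal levels and the dashed line a right level at 50% of the left. All points lie below the solid line, and most lie below a left level of 10 FPKM.

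The mean difference of a member over the 5 rats ran from -4.15 to -0.71, with a median of -1.66, on the log2(FPKM + 0.1) scale, which understates the difference of low transcripts. The SD of the difference over rats ran from 0.32 to 5.65 with a median of 1.08. The median SD over all eligible transcripts, not matched in level, was 0.32. The plot of each member in each rat shows where that spread comes from. Several members with the lowest means, at its left side, had a few rats far below the others, though member 26 was low in every rat. The largest SD, in member 10, came with P52 far above the other rats. Of the 50 members, 6 were halved in all 5 rats and 44 in exactly 4, and 29 were lower on the right in every rat. Every right library was below every left library in 16 of them (32%), as it was in 4.84% of all eligible transcripts.

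**Figure D2:**
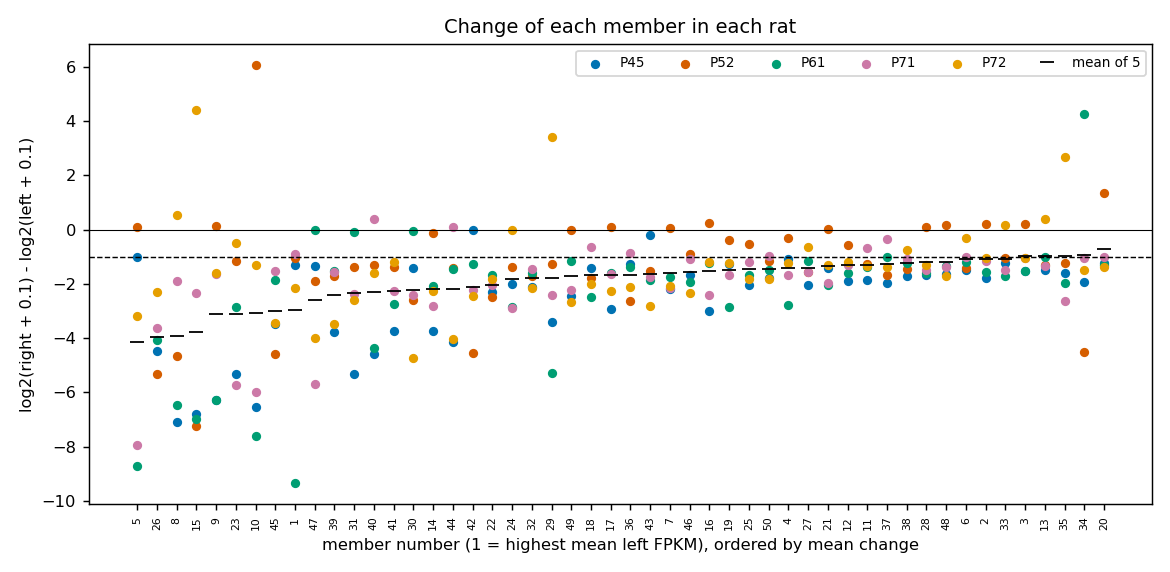
Difference log2(right + 0.1) minus log2(left + 0.1) (vertical axis) of each member (horizontal axis, ordered by the mean of the 5 rats) in each rat, with 1 coloured point per rat and a black bar for the mean. The dashed line is at -1; means run from -4.15 to -0.71, and the points above 0 come from P52 in 12 members, P72 in 6, P71 in 2 and P61 in 1.

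Rats did not contribute equally. P45 had 48 of the 50 members halved, P61 46, P71 42, P72 39 and P52 31. Over all eligible transcripts the halved share was 5.5% in P45, 6.11% in P61, 5.5% in P71, 5.76% in P72 and 3.6% in P52. P52 thus had the lowest share among the members and among all transcripts. The rat that was not halved was P52 for 19 of the 44 members with an exception, P72 for 11, P71 for 8, P61 for 4 and P45 for 2. Member medians were -1.92 in P45, -1.29 in P52, -1.63 in P61, -1.59 in P71 and -1.55 in P72.

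The summed level of all members was 786, 594, 611, 794 and 737 FPKM on the left and 239, 475, 133, 298 and 319 FPKM on the right. These sums are 0.113% to 0.155% of a left library and 0.0269% to 0.0949% of a right one. The log2 ratio of right to left sums was -1.72, -0.32, -2.20, -1.42 and -1.21, with a mean of -1.37 ± 0.69 (SD, n = 5). The right sum was below the left in all 5 rats, least in P52 and most in P61. Without member 1, the most abundant, the mean was -1.35 ± 0.74 (SD, n = 5).

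In the fit over all 20936 transcripts with a mean of at least 0.1 FPKM (limma on log2(FPKM + 0.1), animal as a block, Benjamini-Hochberg), 21 of the 50 members (42%) had an adjusted p under 0.05, against 2.19% of all tested transcripts called lower on the right. At an unadjusted p under 0.05 the members numbered 43 (86%), against 12.5%. The rule used the same difference, so these shares are given only as a description. A call depends on the size of the mean difference as well as on the spread over rats. Member 14, called, had an SD of 1.32, and member 3, not called, one of 0.71. The median SD of the difference was 0.62 for the 21 and 1.73 for the other 29. Their mean differences ran from -3.95 to -1.09, a fold of 2.12 to 15.5 (median 2.99), with adjusted p from 0.00381 to 0.047, and 20 of the 21 were lower in every rat. The count was 4 without P45, 5 without P61, 9 without P71, 14 without P52 and 20 without P72, and in each refit the test had 4 pairs. Of those called, 4 without P45, 4 without P61, 9 without P71, 8 without P52 and 12 without P72 were among the 21. Members 11, 22, 26 and 32 kept an adjusted p under 0.05 with each rat left out, between 0.00920 and 0.0489.

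Members 22, 26, 32, 39, 41 and 45 were halved in all 5 rats. Member 22 had 4.5, 5.54, 5.18, 5.67 and 5.17 FPKM on the left and 0.841, 0.921, 1.56, 1.31 and 1.41 FPKM on the right. Both groups were tight, and the lowest left library, P45, lay well above the highest right one, P61. Its mean difference was -2.05 (limma SE 0.19, adjusted p = 0.00381), the lowest adjusted p of all members. Member 32 had 3.56, 2.03, 1.68, 3.03 and 4.52 FPKM on the left and 0.745, 0.56, 0.49, 1.05 and 0.938 FPKM on the right. The groups did not overlap, and P61 was the lowest on both sides. Its mean difference was -1.80 (SE 0.21, adjusted p = 0.00797), and the SD over rats, 0.32, was the lowest of the 50.

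ENSRNOT00000071808 (member 26) had 2.21, 4.43, 8.02, 1.13 and 2.79 FPKM on the left. On the right it had 0.00328, 0.0144, 0.382, 5.58e-05 and 0.492 FPKM, below every left library. In P45, P52 and P71 almost nothing of it was listed on the right, while P61 and P72 kept a measurable level. The mean difference of -3.95 (SE 0.45, adjusted p = 0.00684), a fold of 15.5, is the lowest among the members halved in all 5 rats, and its size depends on the added 0.1. Members 39, 41 and 45, the rest of the 6, had the lowest mean left levels among them.

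Member 39 had 1.27, 3.56, 2.87, 2.43 and 1.01 FPKM on the left and 0, 1.01, 0.941, 0.755 and 0 FPKM on the right. It was listed at 0 in P45 and P72, the same rats that had the lowest left levels. Member 41 had 1.25, 1.73, 2.87, 2.08 and 1.58 FPKM on the left and 4.44e-05, 0.598, 0.341, 0.361 and 0.64 FPKM on the right, with P45 at the floor. Member 45 had 1.03, 2.36, 1.96, 1.5 and 0.989 FPKM on the left and 0.00015, 0.00133, 0.469, 0.458 and 9.21e-05 FPKM on the right, where P45, P52 and P72 were near 0 and P61 and P71 were not. Mean differences were -2.41 (SE 0.44, adjusted p = 0.0267) for member 39, -2.27 (SE 0.42, adjusted p = 0.0279) for member 41 and -2.98 (SE 0.51, adjusted p = 0.0219) for member 45. In all 3 every right library was below every left one, though in member 39 the left of P72 lay barely above the right of P52.

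**Figure D3:**
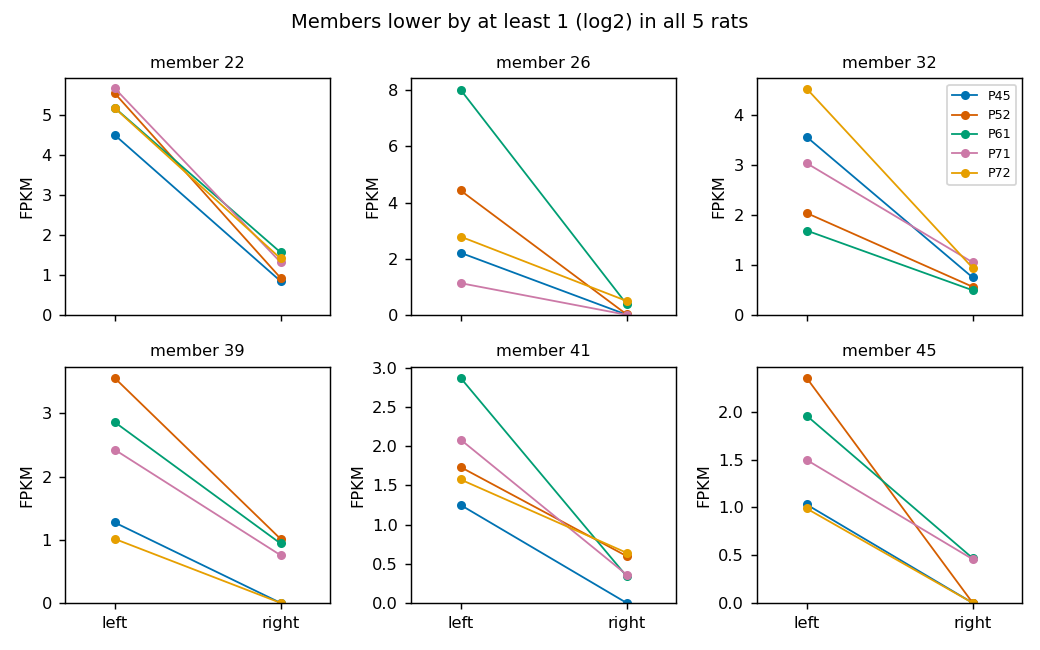
FPKM of members 22, 26, 32, 39, 41 and 45 in the left and right library of each rat, with 1 coloured line per rat and a separate linear axis starting at 0 in each panel. All lines go down, to 0.841 to 1.56 FPKM in member 22 and to near 0 in P45 in members 26, 39, 41 and 45.

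ENSRNOT00000071097 (member 1) had 168, 103, 64.9, 184 and 141 FPKM on the left and 67.5, 49.8, 0, 97.7 and 32.1 FPKM on the right. It was listed at 0 in the right library of P61, whose left library also had the lowest left level. The right of P71 was the highest right value, above the left of P61 and below the other left levels. The 0 decides the mean difference, which was -2.95 (SE 1.24, adjusted p = 0.19) with all rats and -1.35 (SE 0.21, adjusted p = 0.0449) without P61. Differences in the other rats were -1.32, -1.05, -0.91 and -2.14 for P45, P52, P71 and P72.

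Among the members called in limma but not halved in every rat, several had stable left levels. Member 11 had 23, 14.7, 13.4, 15 and 17.5 FPKM on the left and 6.22, 5.96, 5.15, 9.32 and 6.84 FPKM on the right. No right library reached a left one, and P71 was the least lowered at 62.1% of its left level. Its mean difference was -1.31 (SE 0.17, adjusted p = 0.00997). Member 6 had 27.4, 24.6, 25.7, 29.4 and 24 FPKM on the left, a narrow range, and 9.77, 9.24, 11, 14.6 and 19.1 FPKM on the right. P72 kept 79.6% of its left level, and the other rats 35.7% to 49.4%, for a mean difference of -1.09 (SE 0.17, adjusted p = 0.0185). Member 18 had 7.32, 6.1, 7.9, 6.84 and 8.16 FPKM on the left and 2.66, 1.69, 1.33, 4.3 and 1.94 FPKM on the right, again without overlap and with P71 the highest on the right.

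Member 12 had 14.4, 6.06, 11.5, 11.9 and 18.5 FPKM on the left and 3.77, 4.02, 3.74, 4.68 and 8.13 FPKM on the right. Its right libraries stood close together except for P72, which had the highest level on both sides, and P52 had the lowest left level and the smallest difference, -0.58. Its mean difference was -1.32 (SE 0.20, adjusted p = 0.0145). Member 38 had 2.84, 2.45, 1.46, 2.32 and 2.36 FPKM on the left and 0.798, 0.825, 0.565, 1.03 and 1.36 FPKM on the right, with no overlap and P72 the least lowered. Member 27 had 3.82, 3.05, 1.83, 4.64 and 3.85 FPKM on the left and 0.847, 0.967, 0.762, 1.5 and 2.43 FPKM on the right, where the right of P72 exceeded the left of P61. These 2 had mean differences of -1.25 (SE 0.22, adjusted p = 0.0239) and -1.40 (SE 0.24, adjusted p = 0.0226).

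Members 25, 36, 37, 46 and 50 were low transcripts with an adjusted p between 0.0242 and 0.0435. Member 36 had 3.004, 2.22, 1.51, 2.67 and 2.91 FPKM on the left and 1.18, 0.27, 0.525, 1.41 and 0.59 FPKM on the right, below every left library. Member 50, the least abundant on the left, had 0.796, 0.534, 0.995, 1.66 and 1.76 FPKM there and 0.162, 0.184, 0.29, 0.806 and 0.424 FPKM on the right, where the right of P71 exceeded the left of P45 and P52. Member 46 had 1.42, 1.19, 2.76, 0.413 and 1.69 FPKM on the left and 0.369, 0.598, 0.658, 0.141 and 0.257 FPKM on the right, and P71 was the lowest on both sides. Its groups overlapped, and within each rat the right was still below the left. Member 25 had 4.33, 2.34, 2.18, 4.26 and 6.21 FPKM on the left and 0.966, 1.58, 0.621, 1.81 and 1.68 FPKM on the right, and member 37 1.6, 2.17, 3.05, 2.08 and 2.7 FPKM and 0.336, 0.62, 1.45, 1.6 and 0.97 FPKM. Neither overlapped, member 37 by a narrow margin between the left of P45 and the right of P71.

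P52 stood apart in one set of members. In 12 members (2, 3, 5, 7, 9, 14, 16, 17, 21, 28, 48 and 49) its difference was within 0.3 of no change, from -0.14 to 0.23, while the mean of the other 4 rats ran from -5.21 to -1.29 with a median of -1.998. Of all eligible transcripts, 55.1% were within 0.3 of no change in P52. In 8 of the 12, the left library of P52 was the lowest left one, and in 7 its right library was the highest right one. Over all 50 members P52 was the lowest left library in 16, where 25.7% of eligible transcripts had it lowest, and the highest right library in 15, where 18.2% did. P61 was the lowest left library in more members, 19, where 22.2% of eligible transcripts had it lowest. The set was chosen on the measured difference in P52, so its contrast with the other rats is part of its definition.

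**Figure D4:**
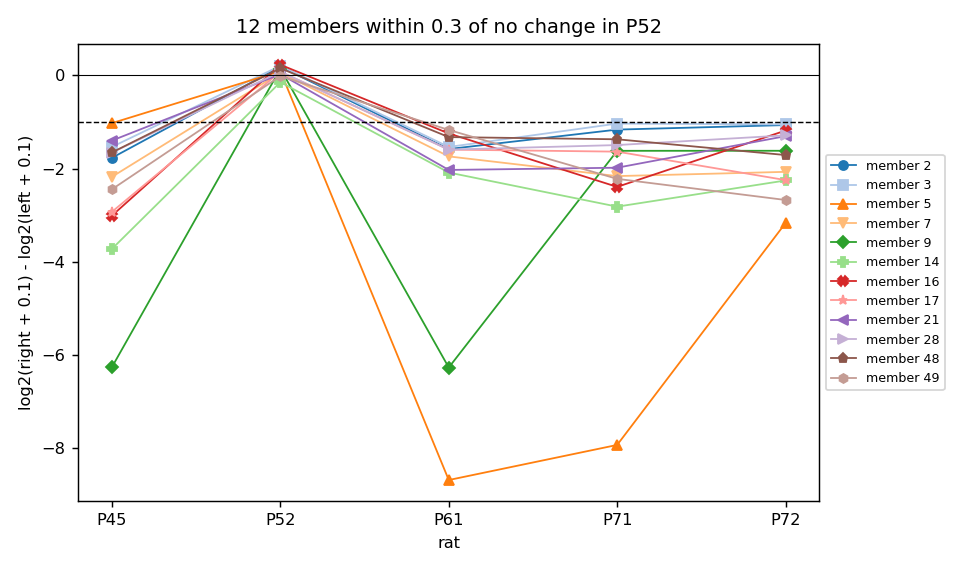
Difference log2(right + 0.1) minus log2(left + 0.1) (vertical axis) in each rat (horizontal axis) for the 12 members within 0.3 of no change in P52, with 1 line per member. All 12 lines meet between -0.14 and 0.23 at P52, and the dashed line marks -1, which the other 4 rats reach.

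Member 2 had 154, 94.9, 98, 104 and 141 FPKM on the left and 45.2, 108, 32.7, 46.3 and 67.3 FPKM on the right. Member 3 had 69.2, 46.7, 48.7, 62 and 74.5 FPKM on the left and 23.8, 54, 16.7, 30.2 and 35.9 FPKM on the right. In both, P52 had the lowest left and the highest right level, and its right was 114% and 116% of its left, against 29.3% to 48.8% in the other rats. The level of member 2 stayed at 1.53 to 2.23 times that of member 3 in all 10 libraries, while member 2 itself varied 4.72-fold. This pair was picked as the most alike among the 1225 pairs of members, and whether both belong to 1 gene is not given by the files. Adjusted p was 0.0616 for member 2 and 0.0649 for member 3.

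Members 7, 14, 17 and 21 shared an order of rats on the left, with P61 highest, P71 next and P52 lowest. Member 7 had 18, 8.01, 49.4, 33.4 and 15.2 FPKM on the left and 3.91, 8.36, 14.7, 7.39 and 3.54 FPKM on the right. Member 14 had 10.01, 3.12, 21, 13.9 and 7.44 FPKM on the left and 0.664, 2.82, 4.88, 1.88 and 1.48 FPKM on the right. The left of P61 was 6.16-fold the left of P52 in member 7 and 6.74-fold in member 14. Member 17 had 5.53, 2.53, 13.7, 8.67 and 6.48 FPKM on the left and 0.639, 2.68, 4.46, 2.72 and 1.29 FPKM on the right, and member 21 5.27, 2.39, 10.9, 7.14 and 3.25 FPKM and 1.94, 2.44, 2.59, 1.73 and 1.25 FPKM. Their left ratios of P61 to P52 were 5.41 and 4.56. P61 was highest and P52 lowest on the left in 5 members and in 1339 of the 15009 eligible transcripts (8.92%).

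The level of member 7 was 1.80 to 5.89 times that of member 14, 2.34 to 6.12 times that of member 17 and 2.02 to 5.69 times that of member 21 over the 10 libraries, while its own level varied 13.9-fold. These pairs are also among the most alike of the 1225 pairs and were chosen after the values were seen. In all 4 members the right of P61 was the highest right level, and it exceeded the left of P52, so the groups overlapped. In every rat but P52 the right level of these 4 was a minor part of the left, from 6.64% in P45 for member 14 to 38.7% in P72 for member 21. Mean differences were -1.62 (SE 0.34, adjusted p = 0.0383) for member 7, -2.21 (SE 0.47, adjusted p = 0.0403) for member 14, -1.67 (SE 0.41, adjusted p = 0.0571) for member 17 and -1.34 (SE 0.32, adjusted p = 0.0534) for member 21.

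Member 5 had 37.9, 108, 42.4, 24.6 and 32.3 FPKM on the left and 18.6, 115, 0.00252, 0.000318 and 3.49 FPKM on the right. P52 had by far the highest level on both sides, and P61 and P71 were near 0 on the right. Its mean difference of -4.15 (SE 1.38, adjusted p = 0.116) was the lowest of all members, with an SD over rats of 3.99. Member 9 had 35.9, 18.2, 20.4, 2.36 and 19 FPKM on the left and 0.368, 20.2, 0.165, 0.6995 and 6.11 FPKM on the right, with P45 and P61 at about 1% of their left level and P52 at 111%. Member 49 had 1.4, 0.844, 0.843, 1.63 and 1.49 FPKM on the left and 0.175, 0.836, 0.319, 0.271 and 0.149 FPKM on the right, where P52 alone was above 0.319. This is the one of the 16 members without overlap that was not called in limma (adjusted p = 0.0689), and its right level in P52 lay just under the lowest left level.

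Members 16, 28 and 48 make up the rest of the 12. Member 16 had 11.8, 4.33, 8.22, 9.48 and 12.1 FPKM on the left and 1.37, 5.1, 3.4, 1.72 and 5.28 FPKM on the right, and P52 was the lowest on the left. Member 28 had 3.69, 2.17, 3.21, 3.86 and 4.08 FPKM on the left and 1.1, 2.3, 0.996, 1.3 and 1.61 FPKM on the right, where P52 was the highest. Apart from P52, the right levels of member 28 lay below all left levels. Member 48 had 1.84, 0.776, 0.735, 1.17 and 2.58 FPKM on the left and 0.516, 0.875, 0.233, 0.393 and 0.719 FPKM on the right, where P52 was again the highest. The 7 other members in which P52 was the exception were lower there by less than the cutoff in 5 and higher in 2.

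Members 4 and 19 belong to the 5 lower ones. Member 4 had 54.2, 39.6, 38.1, 66.8 and 64 FPKM on the left and 25.4, 31.8, 5.51, 21 and 27.5 FPKM on the right, no right library reaching the lowest left one. Member 19 had 5.98, 6.06, 5.76, 7.72 and 6.24 FPKM on the left and 2.4, 4.67, 0.713, 2.34 and 2.64 FPKM on the right, also without overlap. In both, P61 was lowered most, to 14.5% and 12.4% of its left level, and P52 least, to 80.3% and 77.0%. Member 4 stayed at 6.54 to 10.6 times member 19 in all 10 libraries, over a 12.1-fold range of its own level. This pair, too, is among the most alike of the 1225 pairs of members and was chosen after the values were seen. Mean differences were -1.41 (SE 0.32, adjusted p = 0.0462) and -1.48 (SE 0.34, adjusted p = 0.047).

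Of those 7 members, the ones higher on the right in P52 were 10 and 20. Member 10 had 12.4, 0.0901, 23.4, 29.9 and 22.4 FPKM on the left and 0.0329, 12.7, 0.0201, 0.378 and 9.1 FPKM on the right. In P52 the order of the sides was reversed, with 0.0901 FPKM on the left and 12.7 FPKM on the right, a difference of 6.07. This gave it the largest SD of all members, 5.65, and an adjusted p of 0.365. Member 20 had 9.07, 3.09, 5.5, 4.3 and 8.1 FPKM on the left and 3.81, 8.05, 2.16, 2.08 and 3.08 FPKM on the right, a difference of 1.35 in P52 and of -1.37 to -1.02 in the others. Its mean difference of -0.71 (SE 0.42, adjusted p = 0.325) was the smallest of the 50.

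P72 was the exception in 11 members and was not lower on the right in 6 of them. Member 13 had 11.6, 11.7, 14.2, 16.2 and 8.22 FPKM on the left and 4.07, 4.62, 6.94, 6.35 and 10.7 FPKM on the right. Member 33 had 3.26, 3.26, 1.85, 3.35 and 2.009 FPKM on the left and 1.33, 1.51, 0.493, 1.12 and 2.28 FPKM on the right. In both, the right of P72 was the highest right library, above the left library of the same rat. Member 24 had 4.3, 2.21, 5.47, 4.98 and 2.64 FPKM on the left and 0.995, 0.791, 0.677, 0.584 and 2.62 FPKM on the right, where P72 was level with its left and the other rats were at 11.7% to 35.8%.

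In members 8, 15, 29 and 35 the left or right level moved by orders of magnitude between rats. Member 15 had 11.1, 14.9, 12.7, 13.7 and 0.000178 FPKM on the left and 0.000189, 0.000179, 0.000174, 2.63 and 2.02 FPKM on the right. It was near 0 on the left in P72 and on the right in P45, P52 and P61, so P72 went the other way by 4.401. Member 29 had 2.5, 5.24, 3.83, 5.02 and 0.275 FPKM on the left and 0.144, 2.09, 0.000219, 0.86 and 3.94 FPKM on the right, and P72 was higher on the right by 3.43. Member 8 had 20.2, 2.55, 10.5, 56.3 and 28.7 FPKM on the left and 0.0479, 0.00472, 0.0201, 15.1 and 41.3 FPKM on the right, where P71 and P72 kept over 15 FPKM and the other rats had under 0.05. Member 35 had 2.5, 1.23, 2.98, 5.98 and 0 FPKM on the left, listed at 0 in P72, and 0.759, 0.467, 0.677, 0.87 and 0.543 FPKM on the right, a narrow range. The adjusted p of these 4 was 0.0817 for member 8, 0.22 for member 15, 0.365 for member 29 and 0.467 for member 35.

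P45, halved in 48 members, was the exception only in members 42 and 43. Member 42 had 1.7, 2.23, 1.13, 1.8 and 2.38 FPKM on the left and 1.67, 0.00015, 0.407, 0.304 and 0.353 FPKM on the right. Member 43 had 2.16, 1.48, 1.4, 2.03 and 2.02 FPKM on the left and 1.85, 0.445, 0.314, 0.534 and 0.2001 FPKM on the right. In both, P45 kept most of its left level and was the highest right library, with differences of -0.02 and -0.21, and the right levels of the other rats lay below all left levels. Adjusted p was 0.0875 and 0.0515.

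P61 was the exception in members 30, 31, 34 and 47. Member 30 had 0.933, 3.21, 0.548, 3.93 and 8.16 FPKM on the left and 0.29, 0.452, 0.531, 0.662 and 0.209 FPKM on the right. Its right levels lay within a narrower range than its left levels, which ran from the lowest in P61 to the highest in P72. Member 31 had 3.88, 3.9, 0.886, 3.68 and 3.27 FPKM on the left and 2.76e-05, 1.45, 0.823, 0.636 and 0.459 FPKM on the right, with P61 low on the left and level between sides. Member 34 had 5.35, 2.17, 1.95e-05, 3.51 and 2.6 FPKM on the left and 1.33, 1.25e-05, 1.79, 1.64 and 0.854 FPKM on the right, near 0 on the left in P61 and on the right in P52, and P61 was higher on the right by 4.24. Adjusted p was 0.081, 0.0904 and 0.635 for these 3.

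Member 47 had 0.153, 0.533, 3.33e-07, 5.02 and 1.49 FPKM on the left and 0, 0.0706, 1.89e-07, 0 and 3.43e-06 FPKM on the right. It was listed at 0 on the right in P45 and P71, and only the left of P71 and P72 exceeded 1 FPKM. It had the lowest mean right level of all members. Member 40 had 2.3, 1.81, 1.98, 2.33 and 2.41 FPKM on the left, a narrow range, and 0.000545, 0.678, 5.35e-05, 3.06 and 0.729 FPKM on the right. On that side it was near 0 in P45 and P61 and above the left in P71, the exception. Member 23 had 4.02, 4.56, 2.62, 5.14 and 4.01 FPKM on the left and 0.00188, 2.003, 0.278, 1.13e-33 and 2.84 FPKM on the right, near 0 in P71 and 0.00188 in P45, with P72 at 70.8% of its left level. Member 44 had 1.69, 4.31, 1.52, 1.81e-05 and 1.52 FPKM on the left and 5.69e-05, 1.54, 0.489, 0.00607 and 1.60e-05 FPKM on the right, and P71, the exception, was near 0 on both sides.

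Values under 0.001 FPKM were frequent among the members. In 16 of the 50 (32%) at least 1 library was listed below that level, against 1.61% of all eligible transcripts, and 15 had such a value on the right and 5 on the left. In all, 24 of 250 right values and 5 of 250 left values of the members were that low. A right value that low counts as halved wherever the left of the same rat is at least 1 FPKM, so the rule itself favours such transcripts. The 16 had a median mean difference of -2.38 and a median SD over rats of 2.12, and 4 of them were called in limma. The other 34 had a median mean difference of -1.47 and a median SD of 0.77, and 17 were called. Median left levels were 2.63 FPKM for the 16 and 5.90 FPKM for the 34. Members made up 6.64% of the 241 eligible transcripts with such a value and 0.230% of the 14768 without. An isoform that receives almost none of the reads it shares with others, a transcript not sampled at this depth and a transcript absent from the tissue cannot be told apart in FPKM values, and their parts were not tested.

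The rule was also applied in 4 rats and the result was read in the fifth. A transcript halved in at least 3 of 4 rats and in the fifth meets the member rule, apart from the left minimum. The numerators below thus nearly repeat the members halved: 48 in P45, 31 in P52, 46 in P61, 42 in P71, 39 in P72. The shares are given as a description. Transcripts with a mean left level of at least 1 FPKM and halved in at least 3 of the other 4 rats were also halved in P45 in 52.1% of cases (49 of 94), in P61 in 30.5% (46 of 151) and in P71 in 26.5% (41 of 155). In P72 the share was 19% (39 of 205) and in P52 14.2% (31 of 218). Over all annotated transcripts with the same left minimum these shares were 5.41%, 5.95%, 5.33%, 5.41% and 3.39% for P45, P61, P71, P72 and P52. The share in the rat left out was above that of all transcripts in each of the 5 rats. All transcripts were not matched to the chosen ones in level or in spread over rats, and the part of these was not tested. In 4 of the 5 rats, most of the transcripts chosen were not halved in the rat left out. The median difference of the chosen transcripts in that rat was -1.16 in P45, -0.13 in P52, -0.13 in P61, -0.37 in P71 and -0.17 in P72. P52 had the lowest share of chosen and of all transcripts.

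The share that was lower on the right at all, by any amount, in the rat left out was 73.4% for P45, 61% for P52, 54.3% for P61, 57.4% for P71 and 58.5% for P72. Over all transcripts it was 50.5% to 53.8%. Transcripts halved in all 4 of the other rats were few, 8 to 25, and 6 of them were halved in the fifth in each case, since these are the members halved in all 5 rats. Those 6 are 75% of 8 for P45, 24% of 25 for P52, 54.5% of 11 for P61, 40% of 15 for P71 and 35.3% of 17 for P72. The sets chosen with different rats left out share most of their animals and are not independent of each other.

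**Figure D5:**
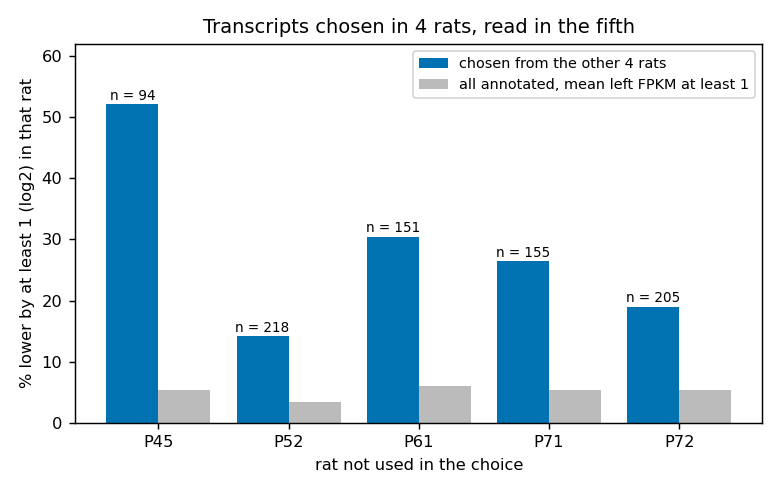
Percent of transcripts halved in a rat (vertical axis, from 0) among those chosen from the other 4 rats (blue, n above each bar) and among all annotated transcripts with a mean left FPKM of at least 1 (grey), for each rat left out (horizontal axis). The blue bars run from 14.2% in P52 to 52.1% in P45 and the grey bars from 3.39% to 5.95%. Chosen transcripts halved in the rat left out meet the member rule, apart from the left minimum.

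Whether a transcript was a member turned on the rat with the fourth lowest difference. Just inside the cutoff were member 6 at -1.01, member 20 at -1.02 and member 13 at -1.02 in that rat. The 3 eligible transcripts just outside had -0.998, -0.991 and -0.989. Between -1.1 and the cutoff there were 13 members, and between the cutoff and -0.9 there were 27 transcripts that were not. The same rule applied to the 626 assembled lncRNAs with a mean left level of at least 1 FPKM found 13. Applied in the other direction, to the 15436 annotated transcripts with a mean right level of at least 1 FPKM, it found 550 that were doubled in at least 4 rats.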

How the data were processed

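RNA of left and right brain tissue of 5 rats, 24 h after MCAO, was sequenced in 10 libraries. The authors mapped reads to rn5 with TopHat2 and deposited FPKM values per transcript from Cufflinks with the Ensembl annotation, 1 column per library and replicates not pooled. The deposited list of lncRNA positions was not used. From the FPKM values log2(FPKM + 0.1) was computed. The fit used limma 3.58.1 in R 4.3.3 (lmFit, eBayes with trend) with the animal as a block and Benjamini-Hochberg adjustment over 20936 transcripts with a mean of at least 0.1 FPKM. Both sides of a pair come from 1 animal, and deviations of the sides from their group means correlated at -0.13 to 0.18 per animal. Read depth is known only relative to the deepest library, so no counting interval is given. In simulated data for this comparison over 20936 transcripts, 141 of 200 changed by 2 (log2) were called, all with the right sign, with 8 unchanged ones, and 0 were called with none changed. The simulated depth estimate (4 libraries, 30000 transcripts) erred by at most 0.00139 on the log2 scale. Alternatives were other pseudocounts, scalings, filters and cutoffs, no block, no trend and leaving out each rat. The identifiers named are the member with the lowest mean difference among those halved in all 5 rats and the member highest on the left. Members, cutoffs and alternatives were chosen with earlier results of these data known. Gene lists and sums per gene were planned and not made, since no table used here pairs the identifiers with genes. Figures were drawn with Python 3.11.15 and matplotlib 3.10.9.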

Additional observations from a re-analysis of the deposited data

Results flagged for a closer look

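In 12 of 100 groups of 5 libraries (50 members, each side), the highest or lowest library stood apart by a gap larger than Dixon's critical value of 0.71 times the range of the group. Chance flags about 1 in 20 groups of normally distributed values, and whether these unlogged FPKM values are so distributed was not tested. Of the 30018 groups of all eligible transcripts, 8.20% were flagged. The member rule admits 1 rat that is not halved, so the flagged share of the members is given only as a description. The flagged rat was the one not halved in members 5, 15, 24, 31, 40, 42, 43 and 49. In members 12, 19 and 47 it was another rat. The gap as a share of the range is given for each.

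P52 was the highest library in 4 of the groups. In member 5 its gap was 0.786 on the left, at 108 FPKM against 24.6 to 42.4 FPKM, and 0.838 on the right, at 115 FPKM against 0.000318 to 18.6 FPKM. Its gap on the right was 0.99995 in member 47, where the level was only 0.0706 FPKM and 2 other libraries were listed at 0, and 0.752 in member 49.

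P72 was flagged on the right in member 12 (0.787) and member 24 (0.798), where it was highest, and on the left in member 15 (0.748), where it was lowest. P45 was the highest right library in member 42 (0.757) and member 43 (0.798). P71 was highest in member 19 on the left (0.751) and in member 40 on the right (0.762). P61 was the lowest left library in member 31 (0.790).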

How the results depend on the processing

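The number of members was 50 as described, 17 with a pseudocount of 1, 22 with a left minimum of 5 FPKM, 6 when all 5 rats had to be halved and 105 with a cutoff of -0.8. With TPM scaling it was 55, of which 42 were among the 50, and with median-of-ratios scaling 47, all among the 50. With each rat left out and 3 of 4 needed, it was 94 to 218. Members called in limma numbered 21, 12 without the filter on low values and 4 to 20 with each rat left out. Of those called with a rat left out, 4 to 12 were among the 21. Without the replicate block they numbered 25, of which 15 were also called with it. Transcripts called lower numbered 459, 279 with TPM scaling, 741 without the replicate block, 126 without the trend, 303 without the filter and 15 to 629 with each rat left out. The causes of these shifts were not tested. The median share halved in the rat left out was 26.5%, and 40% when all 4 other rats were needed. TPM scaling moved the median of all eligible transcripts to -0.06 to 0.12 per rat. The mean difference of each of the 50 members was read again with other pseudocounts, median-of-ratios scaling, no block and each rat left out. TPM scaling, no trend and other filters were not part of this. All 450 values so obtained were below 0, which the rule largely fixed, since every member was halved in at least 4 of 5 rats. Of the 450, 345 kept the same side of the threshold, 77 lost the call and 28 gained it. FPKM values carry no counts, so the precision of low values is not known.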
